A study of Mus musculus with 6 samples.

Results

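The 10 circadian clock genes Clock, Npas2, Per1, Per2, Per3, Cry1, Cry2, Nr1d1, Nr1d2 and Dbp were followed in poly(A) RNA of mouse ventral hippocampus. They were taken by symbol, with earlier results of these data known, from the 56941 gene identifiers of the deposited count table, and all 10 were among the 19354 genes with enough counts to be tested. The 3 overexpression libraries come from mice whose genotype label is NEGR1_overexpression and the 3 control libraries from mice labelled NEGR1_control, all of ventral hippocampus. NEGR1 is a neuronal adhesion molecule that the study raised to examine memory and behaviour related to anxiety and depression. The sources used here do not say how or in which cells the gene was raised, what the control mice carried, or the strain, age and hour of sampling.

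The mammalian clock is a feedback loop of transcription. CLOCK or its paralog NPAS2 pairs with BMAL1 (gene Arntl) and binds E-box sequences to drive the Per, Cry, Nr1d and Dbp genes, and the PER and CRY proteins then hold this pair in check. The REV-ERB receptors (Nr1d1, Nr1d2) repress Arntl, Npas2 and Cry1 through elements that ROR receptors activate, and DBP carries the rhythm on to D-box sequences. Transcripts of the Per, Nr1d and Dbp genes and those of Arntl and Npas2 therefore peak at opposite times of day. The hippocampus holds a clock of its own, and clock genes have been tied to memory in mice.

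RefSeq promoter windows (GRCm38.p6, 250 bases before to 50 after a transcript start) were at hand for 9 of the 10 genes, by symbol; Per2 had none. The windows below are shown because they hold the elements through which the loop acts, or, for Nr1d1, because that gene separated the groups. Capitals mark the E-box CACGTG, the D-box TTATGNAA, the ROR and REV-ERB core AGGTCA and the CRE-like TGACGTC, each read on both strands.
Per1 upstream start (chr11:69098699-69098998, plus strand): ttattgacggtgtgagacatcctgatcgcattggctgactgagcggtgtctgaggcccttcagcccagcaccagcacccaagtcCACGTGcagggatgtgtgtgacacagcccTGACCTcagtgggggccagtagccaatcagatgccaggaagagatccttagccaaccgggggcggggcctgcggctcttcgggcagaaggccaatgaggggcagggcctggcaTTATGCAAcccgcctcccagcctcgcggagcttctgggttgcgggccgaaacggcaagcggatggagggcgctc
Per1 downstream start (chr11:69099902-69100201, plus strand): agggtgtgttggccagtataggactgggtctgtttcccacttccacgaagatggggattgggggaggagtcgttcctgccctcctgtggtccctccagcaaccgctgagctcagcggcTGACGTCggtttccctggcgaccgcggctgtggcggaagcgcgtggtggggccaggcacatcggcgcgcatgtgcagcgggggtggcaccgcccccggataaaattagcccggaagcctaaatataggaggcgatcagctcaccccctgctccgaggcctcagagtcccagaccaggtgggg
Per3 (chr4:151044616-151044915, minus strand): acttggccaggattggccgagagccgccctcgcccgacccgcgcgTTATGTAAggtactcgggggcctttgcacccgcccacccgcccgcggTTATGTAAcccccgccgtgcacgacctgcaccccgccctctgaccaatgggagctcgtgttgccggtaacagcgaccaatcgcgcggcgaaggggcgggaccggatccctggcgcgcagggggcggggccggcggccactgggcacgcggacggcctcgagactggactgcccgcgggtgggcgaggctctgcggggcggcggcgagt
Cry1 (chr10:85185005-85185304, minus strand): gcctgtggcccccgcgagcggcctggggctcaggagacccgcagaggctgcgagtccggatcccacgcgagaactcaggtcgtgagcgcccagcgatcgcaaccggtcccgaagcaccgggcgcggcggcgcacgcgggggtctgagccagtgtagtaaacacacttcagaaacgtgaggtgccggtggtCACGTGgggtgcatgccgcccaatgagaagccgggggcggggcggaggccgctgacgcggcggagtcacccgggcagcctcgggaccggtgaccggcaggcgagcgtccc
Nr1d2 (chr14:18239057-18239356, minus strand): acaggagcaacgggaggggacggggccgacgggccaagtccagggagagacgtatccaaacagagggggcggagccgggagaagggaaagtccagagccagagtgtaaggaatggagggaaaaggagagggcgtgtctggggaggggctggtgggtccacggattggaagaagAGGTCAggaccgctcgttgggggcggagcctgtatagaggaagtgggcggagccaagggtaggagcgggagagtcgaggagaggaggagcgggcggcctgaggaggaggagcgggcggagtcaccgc
Nr1d1 (chr11:98775328-98775627, minus strand): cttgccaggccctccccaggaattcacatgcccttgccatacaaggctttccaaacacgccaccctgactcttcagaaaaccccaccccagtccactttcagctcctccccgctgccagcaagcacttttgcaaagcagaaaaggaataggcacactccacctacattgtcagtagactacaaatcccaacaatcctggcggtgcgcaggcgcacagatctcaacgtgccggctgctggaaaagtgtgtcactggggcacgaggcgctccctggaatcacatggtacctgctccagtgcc
The upstream Per1 window held an E-box, a D-box and a ROR core, and the downstream one held a CRE-like match, the element bound by the activity-dependent factor CREB. Per3 held a pair of D-boxes, Cry1 an E-box and Nr1d2 a ROR core. A ROR core also stood in the third of the Clock windows, which is not shown. The Nr1d1 window held none of these letters. Of the 12 windows of members, 2 held the E-box, 2 the D-box, 3 the ROR core and 1 the CRE-like motif. Among all 32851 RefSeq windows of this length the shares were 7.15%, 3.38%, 16.3% and 3.21%. A match is a string of letters and not a measured binding site.

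Total counts per library were 30726110 to 38108394, and a member had 426 to 5158 counts in a library, with Cry1 the lowest. Negr1 itself stood at 185, 199 and 195 CPM in overexpression libraries, against 181, 168 and 180 CPM in control libraries, a fold of 1.09 (95% interval 1.01 to 1.19) that did not pass the test (edgeR adjusted p = 0.488). CPM, the normalised read count, is a count scaled to library size with TMM factors. All 9 hippocampal principal cell markers were in the tested set, with Zbtb20 at 484 ± 83.0 CPM in overexpression, against 466 ± 61.6 CPM in control libraries (SD, n = 3 each). Overexpression replicate 1 was low on the dentate gyrus marker Prox1, at 68.2 CPM, where the other overexpression libraries had 137 and 123.2 CPM, against 86.4 to 112 CPM in control libraries. It also stood apart on choroid plexus markers, whose 10 genes summed to 1221 CPM there and to 159.5 and 197 CPM in the other overexpression libraries, against 134.5 to 211 CPM in control libraries. That sum is mostly Ttr and Enpp2. All 10 markers had a fold above 1, as did 50.4% of all genes tested. For 5 of them every overexpression library was above every control library, as it was for 7.07% of all genes tested. Clic6, 1 of these, had 19.7, 2.60 and 3.86 CPM in overexpression, against 0.311, 0.984 and 0.295 CPM in control libraries. Meningeal markers had 6 of 6 folds above 1 and 3 without overlap, beside the same 50.4% and 7.07% of all genes tested. They summed to 96.8 to 124 CPM in overexpression, against 69.4 to 111 CPM in control libraries. No gene of these lists passed edgeR's test, and the part of these tissues in the clock values was not tested. Fewer cells of a type and less RNA per cell cannot be told apart in such bulk tissue.

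The clock genes were at close levels in overexpression and control hippocampus. With edgeR's quasi-likelihood test and an adjusted p of 0.05 as the threshold, 0 of the 10 members passed, where 0.0465% of all tested genes did (0.0258% higher and 0.0207% lower). DESeq2 and limma-voom also called 0 members. At an unadjusted p under 0.05 there was 1 member, Nr1d1, which was lower, where the background was 9.24% (4.64% higher and 4.6% lower). Of the 10 members 7 had a fold change above 1, as did 50.4% of all genes tested. The median of their log2 fold changes was 0.018, beside a median of 0.0015 over all genes tested. For 8 of the 10 the 95% interval of the fold lay within 0.8 to 1.25. The exceptions were Nr1d1, at 0.785 to 0.928, and Npas2, at 0.786 to 1.33. For Clock, Npas2, Per2, Cry1 and Dbp, leaving out 1 library could turn the side of 1 on which the fold lay.

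**Figure D1:**
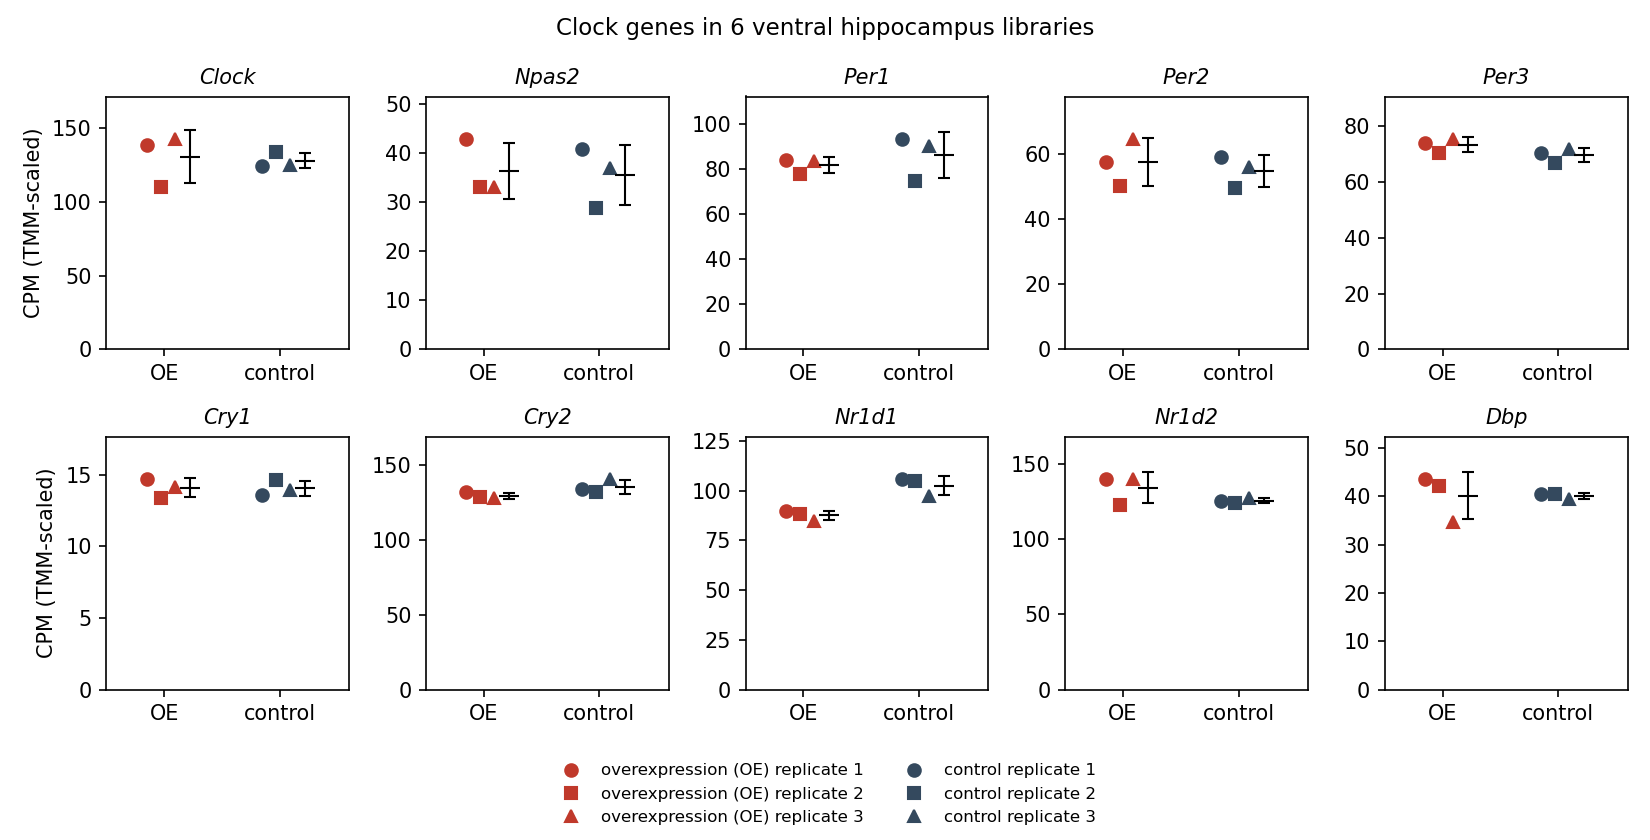
Normalised read counts (CPM after TMM scaling, linear axis from 0) of the 10 clock members in each library, overexpression at the left and control at the right of each panel; bars give mean ± SD (n = 3). Nr1d1 is the member whose groups do not overlap, with 84.9 to 89.5 CPM in overexpression, against 97.1 to 106 CPM in control libraries.

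Among the activators, Clock, which encodes the partner of BMAL1 in most tissues, had 139, 110.4 and 143 CPM in overexpression libraries, against 125, 134 and 125 CPM in control libraries. Overexpression replicate 2 was the lowest of the 6 and overexpression replicates 1 and 3 the highest, so the control values lay inside the overexpression range. The fold was 1.02 (95% interval 0.894 to 1.17). Npas2, the paralog that is abundant in forebrain, had 43.0, 33.1 and 33.1 CPM in overexpression, against 40.9, 28.8 and 37.1 CPM in control libraries. Both groups held a high and a low library, and control replicate 2 was the lowest. Its highest library was 1.49 times its lowest, a wider spread than in 93.4% of the 12009 genes with a mean of at least 5 CPM, whose median ratio was 1.19. The fold of Npas2 was 1.02, and its log2 fold change was -0.10 without overexpression replicate 1 or without control replicate 2. Arntl, which encodes BMAL1 and is no member, had 28.4, 25.3 and 30.3 CPM in overexpression, against 30.6, 30.0 and 25.6 CPM in control libraries. Its fold was 0.974 (95% interval 0.857 to 1.11), with groups that overlapped.

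Among the repressors of that pair, Per1, the PER gene that also responds to light, glucocorticoid and neuronal activity, had 84.0, 77.9 and 83.4 CPM in overexpression, against 93.4, 74.5 and 90.4 CPM in control libraries. The control libraries bracketed the overexpression ones, with control replicate 2 the lowest. The log2 fold change was -0.074 ± 0.078 (SE; edgeR adjusted p = 0.813), and ran from -0.17 without control replicate 2 to -0.0079 without control replicate 1. Per2, needed for stable rhythms in mice, had 57.5, 50.03 and 64.6 CPM in overexpression, against 58.9, 49.5 and 55.8 CPM in control libraries. Its highest value was in overexpression replicate 3 and its lowest in control replicate 2, and the fold was 1.05 (95% interval 0.910 to 1.21). Per3, whose loss has milder effects on mouse rhythms, had 74.2, 70.3 and 75.6 CPM in overexpression, against 70.6, 67.0 and 71.9 CPM in control libraries. The groups overlapped narrowly, and the log2 fold change was 0.072 ± 0.057 (SE; edgeR adjusted p = 0.739). Control replicate 2 held the lowest value of all 3 PER genes.

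The cryptochromes had the narrowest spread of the members. Cry1, a strong repressor of CLOCK and BMAL1, had 14.7, 13.4 and 14.2 CPM in overexpression, against 13.6, 14.6 and 14.0 CPM in control libraries, and its fold was 1.0 (95% interval 0.882 to 1.14). Cry2, its paralog, had 132, 128 and 128 CPM in overexpression, against 134, 131 and 141 CPM in control libraries. Overexpression replicate 1 lay just above control replicate 2, so the groups overlapped, and the fold was 0.955 (95% interval 0.884 to 1.03). The highest library was 1.10 times the lowest for both genes, at percentiles 10.9 (Cry1) and 12 (Cry2) of the 12009 genes. Cry2 shares 295 of its 6320 exonic bases (4.67%) with D930015M05Rik, a transcript on the other strand.

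Nr1d1, which encodes REV-ERB alpha, was the member with the largest difference. It had 89.5, 88.3 and 84.9 CPM in overexpression libraries, against 106, 105 and 97.1 CPM in control libraries. Every overexpression value lay below every control value, as it did for 8.07% of all genes tested. The fold was 0.854 (95% interval 0.785 to 0.928) and the log2 fold change -0.23 ± 0.056 (SE). It did not pass edgeR's test over all genes (adjusted p = 0.232, before adjustment p = 0.0012), and a two-sided exact permutation test gave p = 0.1, the smallest that 3 libraries against 3 allow. With no filter on low counts 35633 genes were tested and 304 passed, against 9 with the default filter. There Nr1d1 passed at an edgeR adjusted p of 0.0494. It did not pass with DESeq2 (adjusted p = 0.0828), where 107 of all genes did, or with limma-voom (adjusted p = 0.275). Without overexpression replicate 1, the library high in choroid plexus markers, the log2 fold change was -0.25. Leaving out each library in turn gave log2 fold changes of -0.27 to -0.20 and edgeR adjusted p-values of 0.126 to 0.612.

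The paralog Nr1d2, which encodes REV-ERB beta, had 140.1, 122 and 140.0 CPM in overexpression, against 125, 124 and 127 CPM in control libraries, with overexpression replicate 2 the lowest of all 6. Its fold was 1.07 (95% interval 0.978 to 1.17). The log2 ratio of Nr1d1 to Nr1d2, taken up after the values were seen, was -0.65, -0.47 and -0.72 in overexpression libraries and -0.24, -0.24 and -0.39 in control libraries. The groups did not overlap on this ratio, and the exact permutation test gave p = 0.1, the smallest possible. Nr1d1 alone had already separated the groups when the ratio was chosen. The ratio thus restates the Nr1d1 values in part, and its p is no separate support.

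Nr1d1 lies across the 3' end of Thra, the thyroid hormone receptor gene on the other strand. In the GENCODE M21 annotation 263 of the 3077 exonic bases of Nr1d1 (8.55%) are shared with Thra, which had 136180 counts in the 6 libraries, against 19374 for Nr1d1. The libraries kept strand, but the sources used here name no strand setting for the counting, so reads of the shared bases may have gone to either gene or been dropped. Thra had 648, 686 and 635 CPM in overexpression, against 689, 678 and 671 CPM in control libraries, with a fold of 0.966 and groups that overlapped. The log2 ratio of Nr1d1 to Thra was -2.86, -2.96 and -2.90 in overexpression and -2.70, -2.70 and -2.79 in control libraries, and the groups did not overlap. The highest Thra library was 1.09 times the lowest, so this ratio largely restates the Nr1d1 values. The part of shared reads in the Nr1d1 difference was not tested. Oligodendrocyte markers stood lower beside Nr1d1: 8 of 8 had a fold below 1, where 50.4% of all genes tested had a fold above 1. For 5 of the 8 every overexpression value lay below every control value, as it did for 8.07% of all genes tested. At an unadjusted edgeR p under 0.05 there were 7, where the background was 4.6% lower, and 0 passed after adjustment. The 8 markers summed to 3026 to 3575 CPM in overexpression, against 3800 to 4777 CPM in control libraries. Mbp, which encodes myelin basic protein, had 1492 ± 121 CPM in overexpression, against 2030 ± 220.3 CPM in control libraries (SD, n = 3 each; edgeR adjusted p = 0.150). The 6 astrocyte markers summed to 5463 to 5983 CPM in overexpression, against 5405 to 6027 CPM in control libraries, and 4 of them had a fold below 1. That sum is mostly Slc1a2, a glutamate transporter gene. Gfap, the astrocyte filament gene, had 338, 328 and 401 CPM in overexpression, against 465, 525 and 533 CPM in control libraries (fold 0.700, edgeR adjusted p = 0.0862). It was the 1 astrocyte marker of the 6 whose groups did not overlap, where 8.07% of all genes tested lay lower without overlap. The folds of the other astrocyte markers ran from 0.933 to 1.04. No marker of either list was at 0 in the 6 libraries, and the part of these cells in the Nr1d1 difference was not tested.

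Dbp, a D-box activator whose transcript is among the most rhythmic in mouse tissues, had 43.7, 42.1 and 34.7 CPM in overexpression, against 40.5, 40.6 and 39.4 CPM in control libraries. Overexpression replicates 1 and 2 were the highest and replicate 3 the lowest, and the control libraries lay between them. The means were 40.2 ± 4.79 CPM for overexpression and 40.1 ± 0.635 CPM for control (SD, n = 3 each), and the fold was 1.0 (95% interval 0.889 to 1.13). Dbp shares 539 of its 2993 exonic bases (18.01%) with Sphk2, a sphingosine kinase gene on the other strand, and Sphk2 had 22.7 ± 0.292 CPM in overexpression, against 25.1 ± 1.65 CPM in control libraries.

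**Figure D2:**
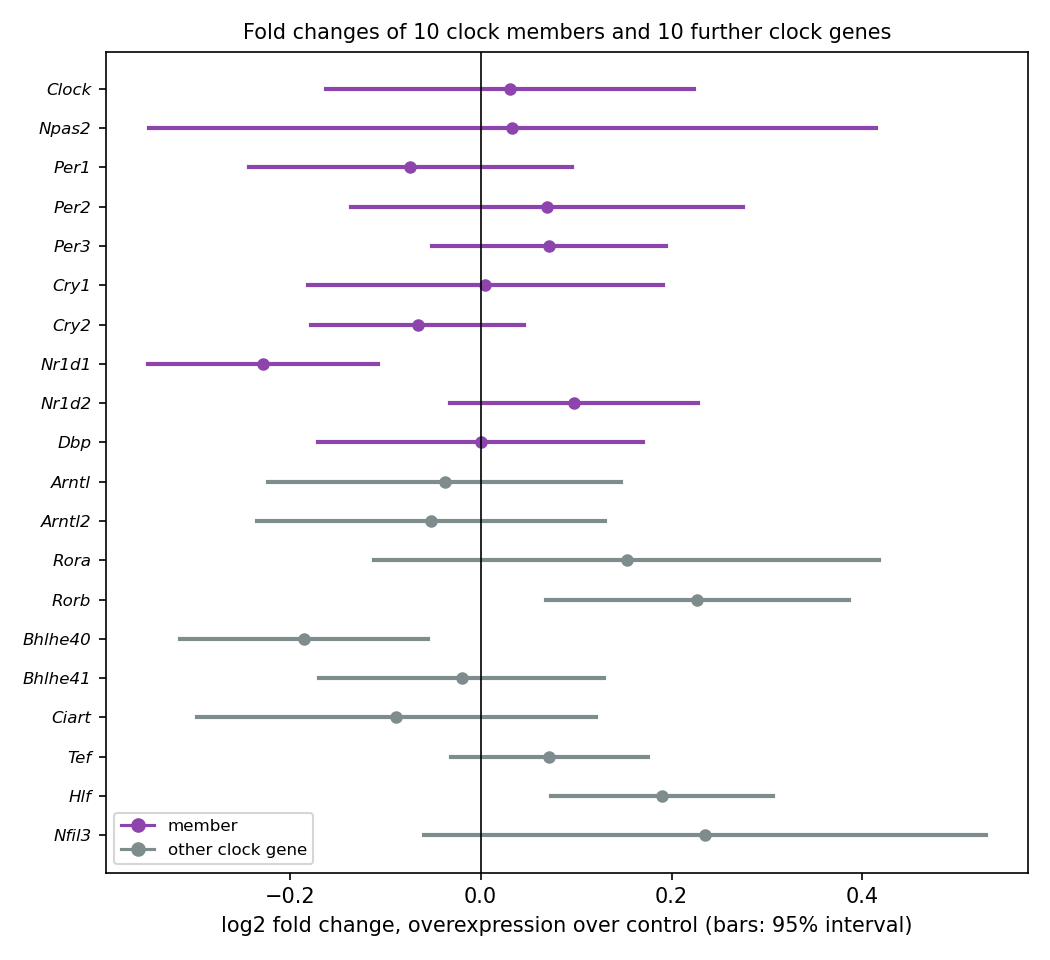
Log2 fold changes, overexpression over control, with 95% intervals from edgeR's quasi-likelihood fit for the 10 members and 10 further clock genes. Of the members the interval of Nr1d1 (-0.35 to -0.11) leaves out 0, and none of the genes drawn passed an adjusted p of 0.05.

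Per kilobase of annotated exon, Nr1d1 was the most abundant member, at 28.4 ± 0.784 CPM per kb in overexpression and 33.3 ± 1.56 CPM per kb in control libraries (SD, n = 3 each). Over all 6 libraries Nr1d2 followed at 24.0 ± 1.499, Cry2 at 20.9 ± 0.738, Per1 at 14.9 ± 1.27 and Dbp at 13.4 ± 1.02 CPM per kb (SD, n = 6). Below them came Per2 at 9.57 ± 0.975, Clock at 9.43 ± 0.862, Npas2 at 7.51 ± 1.12 and Per3 at 7.45 ± 0.317 CPM per kb, with Cry1 the least abundant at 4.22 ± 0.1605 CPM per kb. Neighbours whose ranges overlapped across the 6 libraries were Per1 with Dbp, Per2 with Clock, Clock with Npas2, and Npas2 with Per3. The other neighbours did not overlap. Lengths are the union of all annotated exons, and a gene whose hippocampal transcript is shorter than that union, which reached 13727 bases for Clock, has its level understated.

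**Figure D3:**
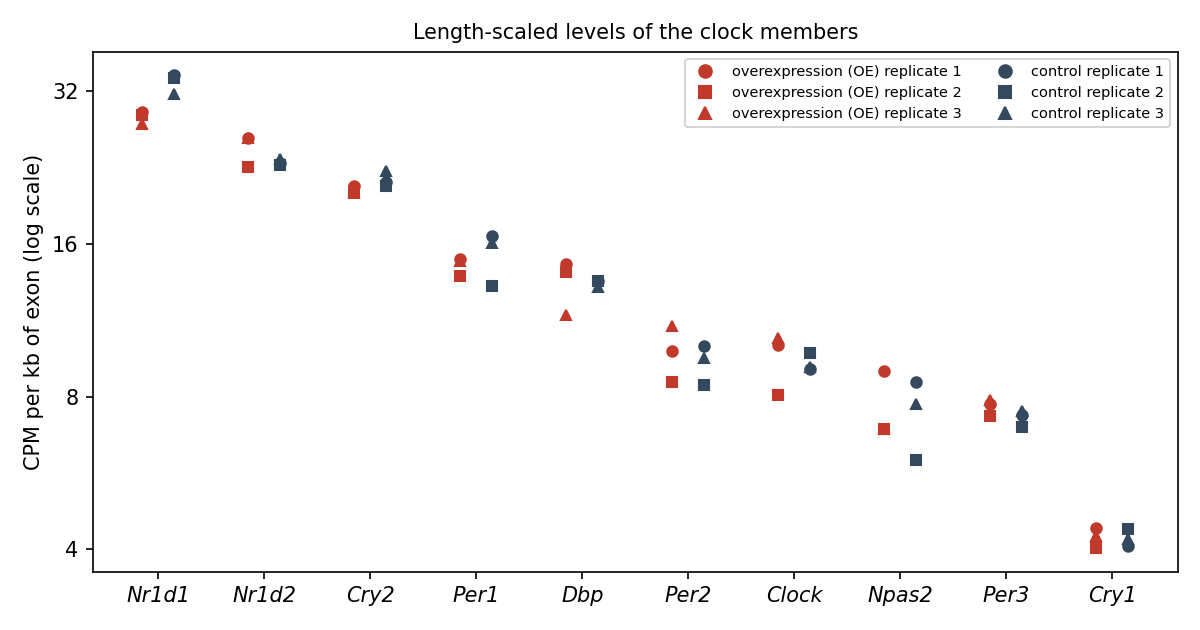
Levels of the 10 members in CPM per kilobase of exon (log axis), ordered by their mean over 6 libraries, with overexpression libraries left of control libraries for each gene. The order runs from Nr1d1 at a mean of 30.9 to Cry1 at 4.22 CPM per kb, and the groups separate for Nr1d1 alone.

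Over the 6 libraries, the pairs with the highest Pearson r of log2 CPM were Per3 with Nr1d2 (0.871) and Per2 with Per3 (0.836), and the lowest was Per3 with Nr1d1 (-0.746). These coefficients describe 6 libraries that share group differences and composition, and carry no test. By Pearson r with Dbp over 12008 genes with a mean of at least 5 CPM, the other members ranked between 3017, for Npas2 (r = 0.359), and 10712, for Per2 (r = -0.621). The 3 genes most like Dbp were Nrsn2 (r = 0.986), which encodes a neuronal vesicle membrane protein, Cd151 (0.980), a tetraspanin gene, and Gm49284 (0.979).

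Further parts of the loop were read from lists of 34 other clock genes, of which 32 were tested. With edgeR's test 0 of them passed (0 also with DESeq2 and limma-voom), and edgeR adjusted p-values ran from 0.340 to 0.999. Of the 32, 21 had a fold above 1 and 11 below, and the log2 fold changes had a median of 0.064. At an unadjusted p under 0.05 there were 4 higher and 1 lower, where the background was 4.64% and 4.6%. Groups did not overlap for 6 higher and 1 lower, where the background was 7.07% and 8.07%. With no filter on low counts 1 of them passed, Ppp1cb, which encodes a phosphatase subunit that acts on PER. In that setting 304 of all genes passed.

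Of the D-box factors beside Dbp, Hlf, an activator of the same family, had 202, 201 and 220.3 CPM in overexpression, against 187, 180.0 and 179 CPM in control libraries. The groups did not overlap, the fold was 1.14 (95% interval 1.05 to 1.24) and the edgeR adjusted p was 0.340. Tef, the other activator of the family, also separated the groups, at 425 to 450.3 CPM in overexpression, against 413 to 417 CPM in control libraries, with a fold of 1.05 (95% interval 0.979 to 1.13). Nfil3, which represses at D-boxes, had 7.96, 7.98 and 10.8 CPM in overexpression, against 8.44, 7.07 and 7.21 CPM in control libraries, with groups that overlapped. Dbp thus had equal group means, where Hlf and Tef were 14.1% and 5.12% higher in overexpression, and none of the 3 passed the test.

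Of the receptors that oppose REV-ERB at ROR elements, Rora had 64.6, 47.2 and 63.5 CPM in overexpression, against 49.5, 56.1 and 52.0 CPM in control libraries. Rorb, a marker of cortical and thalamic neurons as well, had 24.9, 27.2 and 27.4 CPM in overexpression, against 22.8, 23.8 and 21.4 CPM in control libraries. Its groups did not overlap, with a fold of 1.17 (95% interval 1.05 to 1.31; edgeR adjusted p = 0.401). Thalamus and habenula markers ran beside it, with 6 of 7 above 1 and sums of 54.5 to 63.7 CPM in overexpression, against 42.7 to 51.4 CPM in control libraries; their part in the Rorb value was not tested.

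Of the further E-box repressors, Bhlhe40 (DEC1) had 101, 90.8 and 103 CPM in overexpression, against 112, 116 and 108 CPM in control libraries. The groups did not overlap, the fold was 0.880 (95% interval 0.804 to 0.963) and the edgeR adjusted p was 0.401. Its paralog Bhlhe41 (DEC2) had 29.7 ± 1.63 CPM in overexpression, against 30.2 ± 1.37 CPM in control libraries. Ciart, a repressor of CLOCK and BMAL1 that is strongly rhythmic in mouse liver and brain, had 12.8 ± 0.962 CPM in overexpression, against 13.6 ± 1.03 CPM in control libraries (SD, n = 3 each). Arntl2, the BMAL1 paralog, had 17.2 ± 0.668 CPM in overexpression, against 17.8 ± 1.40 CPM in control libraries. Among 12 genes that set the turnover of clock proteins 9 were above 1, and the pair with the smallest p were Ppp1cb (fold 1.14, edgeR adjusted p = 0.418) and Usp2, a deubiquitinase gene (fold 1.10, edgeR adjusted p = 0.504). The casein kinase genes Csnk1d and Csnk1e, whose products mark PER for decay, had folds of 0.995 and 0.994. Of 9 tested output genes 7 were above 1, and the smallest p belonged to Klf9, a factor under clock and glucocorticoid control (fold 1.08, edgeR adjusted p = 0.543), and Cys1, which encodes the ciliary protein cystin (fold 1.15, edgeR adjusted p = 0.585).

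The balance of the loop was read in each library as the mean log2 deviation of a day arm less that of a dawn arm. The day arm held the 3 Per genes, Dbp, Nr1d1, Nr1d2, Tef, Hlf, Ciart and Bhlhe41, which peak by day or in the evening in mouse tissues. The dawn arm held Arntl, Npas2, Clock, Cry1 and Nfil3. Bhlhe40, the paralog of Bhlhe41, was tested but stood in neither arm, and the arms were chosen with earlier results of these data known. The difference was -0.054, 0.073 and -0.082 in overexpression libraries and -0.019, 0.009 and 0.072 in control libraries. Both groups spread over both signs, with means of -0.021 ± 0.083 for overexpression and 0.021 ± 0.047 for control (SD, n = 3 each). In single pairs, the log2 ratio of Dbp to Arntl was 0.62, 0.74 and 0.19 in overexpression and 0.41, 0.43 and 0.62 in control libraries, and that of Per2 to Arntl was 1.02, 0.98 and 1.09 in overexpression, against 0.95, 0.72 and 1.12 in control libraries. The groups overlapped on both ratios. The arms did not run against each other: the 3 libraries highest on the dawn arm, overexpression replicates 1 and 3 and control replicate 1, were also the 3 highest on the day arm. With no hour of sampling in the labels, no clock time can be given to any library.

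**Figure D4:**
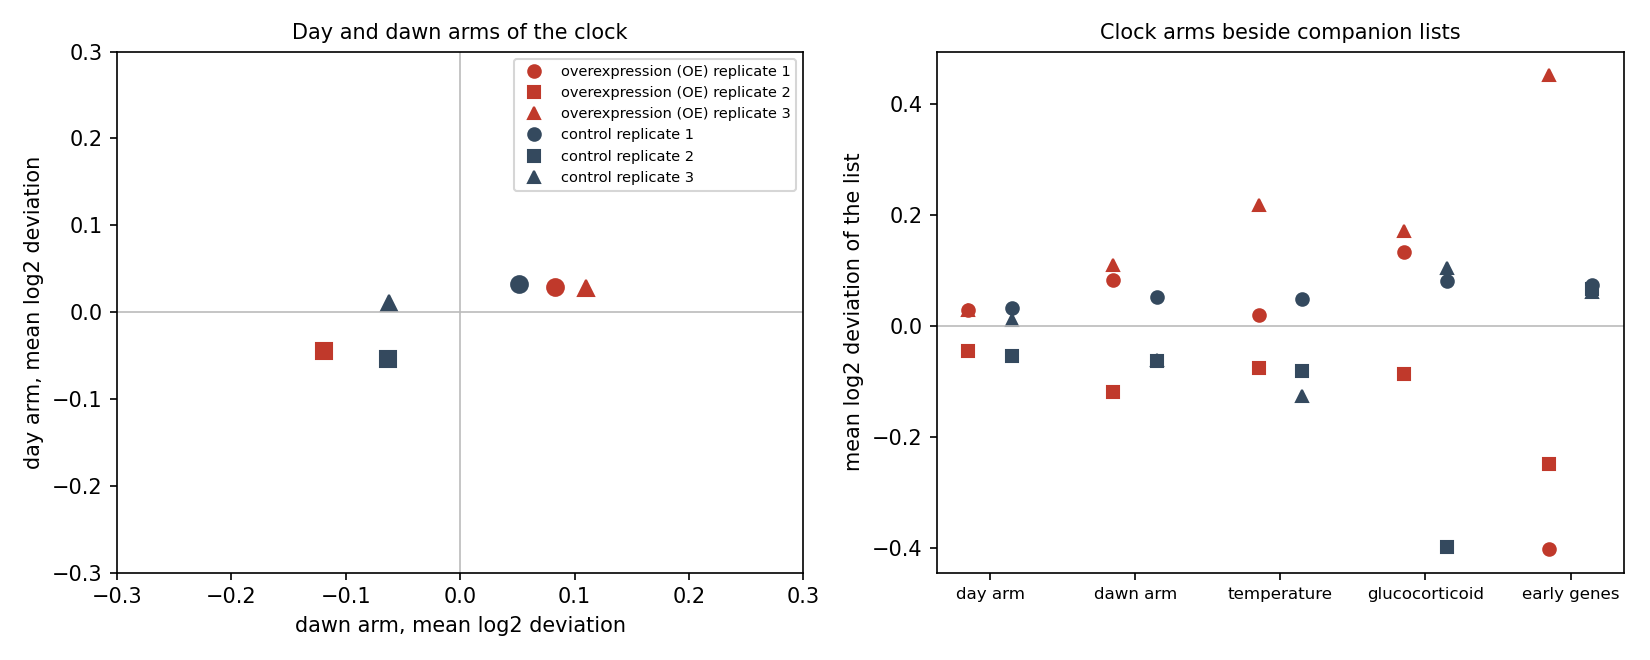
Left, mean log2 deviation of the day arm against that of the dawn arm in each library; right, mean log2 deviation of the arms and of the temperature, glucocorticoid and immediate early gene lists, overexpression left of control. The arms stay between -0.119 and 0.110, while the glucocorticoid list of control replicate 2 stands at -0.399 and the early genes of the overexpression libraries spread from -0.402 to 0.451.

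Signals that reset the clock were read beside it. Of 8 genes that follow body temperature 6 were above 1 and 0 passed edgeR's test, with 0 at an unadjusted p under 0.05. That list mixes genes raised by cold with genes raised by heat, so its count and mean give no direction of temperature. Hsph1 was at 366 ± 58.8 CPM in overexpression, against 329 ± 12.7 CPM in control libraries (SD, n = 3 each). Hspa1a, like Hsph1 a heat shock chaperone gene, was at 8.60 ± 1.75 CPM in overexpression, against 7.45 ± 1.40 CPM in control libraries. Of 13 tested glucocorticoid responsive genes, 4 of which also stand in the output list, 12 were above 1 and 0 passed. In that list Sult1a1, a sulfotransferase gene, was at 11.2 ± 1.03 CPM in overexpression, against 8.95 ± 1.61 CPM in control libraries. Mt1, a metallothionein gene and the member of that list below 1, was at 91.8 ± 10.5 CPM in overexpression, against 104 ± 8.34 CPM in control libraries. Control replicate 2 had the lowest mean log2 deviation on the list, as it was for the PER genes and Npas2. Of 12 immediate early genes 9 were below 1 and 0 passed. Egr1, a zinc finger factor induced by neuronal activity, was at 79.4, 67.0 and 96.7 CPM in overexpression, against 101, 121 and 105 CPM in control libraries, and Egr4, of the same family, at 9.81, 12.6 and 14.5 CPM in overexpression, against 15.1, 15.5 and 15.3 CPM in control libraries. Every overexpression value lay below every control value for both genes, as it did for 8.07% of all genes tested. Their edgeR adjusted p-values were 0.456 and 0.460. At an unadjusted p under 0.05 the glucocorticoid and early gene lists each held 2 genes, beside 9.24% of all genes tested.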

How the data were processed

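Ventral hippocampus of each mouse gave 1 strand-specific poly(A) library, per the labels' protocols. The deposited table holds raw whole counts by Ensembl gene identifier, and 0 of its sample columns went unused. The submitters' processing notes list Trimmomatic 0.36, STAR 2.7.10, featureCounts 2.0.3 and the builds mm10 and GRCm39, with no role for each. The sources used here give no annotation release, strand setting or rule for shared reads.

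Counts were tested with edgeR 4.0.16's robust quasi-likelihood test in R 4.3.3, with TMM factors, the default filter on low counts, which kept 19354 genes, and group as the only term. Benjamini-Hochberg adjustment ran over all of them, with 0.05 as the threshold. The SE came from the F statistic. Log2 CPM used a prior count of 2. The test was tried on simulated data. The design text names separate mice, and every pair of libraries differed beyond sampling noise (chi-square per degree of freedom 4.285 to 12.9). Symbols and exon lengths came from GENCODE M21. The members and lists were chosen with earlier results of these data known. Named genes are all members, loop and D-box genes, Negr1, Thra and Sphk2, the pair with the smallest p in each companion list, at most the 2 most abundant of a marker list and the 3 genes most like Dbp; 1 of the loop genes is not reported here. Csnk1d, Csnk1e, Gfap, Prox1 and Clic6 were named outside this rule, after their values were seen. Alternatives were DESeq2 1.42.0, limma-voom (limma 3.58.1), other scaling factors, other filters, the replicate number as a block, a looser adjusted p (0.1) and fits without each library in turn.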

Additional observations from a re-analysis of the deposited data

How the results depend on the processing

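Under the alternatives 0 members and 0 of the other clock genes passed, except with no filter on low counts, where 1 of each did and 304 of all genes. The cause was not tested. Over all genes 9 passed, against 5 with at least 1 CPM in 3 libraries, 107 with DESeq2's Wald test, 19 at an adjusted p of 0.1 and 2 (without control replicate 2) to 63 (without overexpression replicate 1) with each library left out in turn. Same-numbered libraries correlated at 0.061, 0.029 and 0.063 in their deviations from the group means, where all pairs ran from -0.099 to 0.063. Overexpression replicates 1 and 3 correlated best with the control of the same number, and replicate 2 with control replicate 1 (0.034). Such low values do not settle whether replicate numbers pair the samples. With the replicate block 26 genes passed and the log2 fold change of Dbp was -0.0049. With limma-voom those of Dbp and Npas2 were -0.0036 and -0.016. Leaving out 1 library turned the sign of folds near 1. The log2 fold change of Per2 ran from -0.023 (without overexpression replicate 3) to 0.16, that of Cry1 from -0.028 (without overexpression replicate 1) to 0.039 and that of Dbp from -0.065 (without overexpression replicate 1) to 0.098. Clock ran from -0.036 (without overexpression replicate 3) to 0.14, Npas2 from -0.10 (without overexpression replicate 1 or control replicate 2) to 0.15, Arntl from -0.11 to 0.030 (without overexpression replicate 2), Arntl2 from -0.11 to 0.0066 (without control replicate 1) and Bhlhe41 from -0.057 to 0.019 (without overexpression replicate 1). The day arm less the dawn arm, overexpression minus control, was -0.042 and ran from -0.089 to -0.011 with a library left out, and was 0.00085 with Nfil3 and Cry1 left out of the dawn arm. The direction of Nr1d1, Per1, Per3, Cry2 and Nr1d2 held in all 15 fits. With 3 libraries a group, the 95% interval of a member fold reached down to 0.785 and up to 1.33.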

Other observations

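The 10 members were set beside 3 companion lists over the 6 libraries, 30 relations in all, with the Pearson r of log2 CPM and the list's mean. The plan for these lists held counts, medians and per-library means only, so the relations and their tests were unplanned. After the values of r were seen, r was taken again with the group means removed. An exact permutation test then moved libraries within their group only, and its smallest possible p is 0.0278. None of the 30 passed after Benjamini-Hochberg adjustment by that test, where the smallest adjusted p was 0.556. With that floor 1 relation, or a few, could not pass an adjustment over 30, so no conclusion is drawn from this. With libraries moved freely over all 6, the exact permutation test gave Per3 with the glucocorticoid list p = 0.00139 (adjusted 0.0417, and 0.0833 on ranks). That test does not keep group differences apart.

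The list of glucocorticoid responsive genes is without Per1, but some of its genes, Klf9 among them, also stand in the clock output list. With this list Per3 had r = 0.897, and 0.923 within groups (exact permutation p = 0.0278, adjusted 0.556). Per2 had 0.833, and 0.825 within groups (exact permutation p = 0.0556, adjusted 0.556), and Nr1d2 0.637, and 0.560 within groups (exact permutation p = 0.0556, adjusted 0.556). Per1, a textbook glucocorticoid target, had 0.753, and 0.975 within groups (exact permutation p = 0.111, adjusted 0.667). Without the 2 libraries farthest from the list's median the r of Per1 was -0.942, so the 0.753 rests on them. The same check gave 0.990 for Per3, 0.706 for Per2 and 0.911 for Nr1d2. It gave 0.997 for Per2 with the temperature list and -0.869 for Dbp with the immediate early genes. Few libraries remain in such a check, and it carries no test. Control replicate 2 is the low library of the glucocorticoid list, at -0.399. Per2 stood as close to the temperature list, which mixes genes raised by cold and by heat. Its r was 0.836, and 0.843 within groups (exact permutation p = 0.111, adjusted 0.667). Dbp ran against the immediate early genes, with r = -0.952, and -0.990 within groups (exact permutation p = 0.139, adjusted 0.694). Overexpression replicate 3 held the lowest Dbp, 34.7 CPM, and the highest early gene level.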
